A study of Mus musculus with 30 samples.

Results

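Oligodendrocyte lineage and myelin genes were followed in the hypothalamus of mice that were fed, fasted or refed. The set held 31 genes, taken by name and matched by Ensembl ID in 3 tables of raw counts with 52286, 55401 and 22371 genes. They comprised 2 precursor genes, 3 genes of committed and newly formed cells, 5 lineage transcription factors, 10 myelin proteins of mature cells, 4 genes of myelin lipid and acetate metabolism, and 7 other genes enriched in the lineage. All 31 genes were rows of all 3 tables. After a filter on low counts, 30 were tested in the fasting and refeeding tables and 31 in the 1-month table.

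Bulk RNA-seq of hypothalamus from wild-type (WT) B6 mice, also labelled C57, gave 30 libraries in 9 groups, and no age or sex was given in the sources used here. The fasting table held 3 libraries each from mice fasted for 24 h, fasted for 72 h, fasted for 72 h with cold treatment at 18 C, and fed. The refeeding table held 3 libraries at 1 h, 3 at 12 h and 4 at 1 week of refeeding, each after a 72 h fast, and no fed library of that table was analysed here. The 1-month table held 4 libraries from mice refed for 1 month after a 72 h fast and 4 from fed controls. Changes were read within a table only, because the tables were made separately and counted differently. The labels do not say whether each library came from 1 animal, so the p-values measure the spread between libraries, which may be technical.

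Oligodendrocytes wrap axons in myelin, a stack of membrane rich in cholesterol and galactolipids, and arise from precursor cells that persist in the adult brain. Precursors carry the growth factor receptor Pdgfra and the proteoglycan Cspg4 (NG2), pass through a committed stage marked by Gpr17, Enpp6 and Bcas1, and then switch on Myrf and the genes of the myelin sheath. In the adult hypothalamus precursors divide and form new oligodendrocytes, in the median eminence among other places, and nutrition is known to alter this process. In bulk tissue, fewer cells of a type and less RNA per cell cannot be told apart.

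Library totals were 27.1 M to 43.4 M counts (M, mega) in the fasting table, 26.1 M to 64.3 M in the refeeding table, where the 1-week libraries were the deepest at 46.9 M to 64.3 M, and 9.35 M to 13.8 M in the 1-month table. Values are CPM, the counts of a gene relative to the size of its library, after scaling for library composition (TMM). All 10 genes of a list of hypothalamic neurons (Pomc, Agrp, Hcrt, Oxt and others) passed the filter in every table, with summed levels of 161 to 317 CPM across fasting libraries. Striatal neuron markers were also present, at 433 to 1170 CPM in the fasting table and 499 to 1730 CPM in the refeeding table, and fed library 2 held 2590 CPM of liver and skeletal muscle markers, against 15.1 to 164 CPM in the other fed libraries. The member genes moved together from library to library in some groups: within the cold group, library 3 was the highest for 28 of the 30 tested members, and within the 1-month refed group, library 5 was the lowest for 29 of 31. Within the 72 h fast no library stood out in this way, with 5, 12 and 13 members highest in libraries 1, 2 and 3. The same count over all genes was not made.

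Counting limited 3 members. Gpr17, the receptor of committed precursors, was at 0 in every library of the fasting and refeeding tables and at 34.2 to 46.5 CPM in the 1-month table. It lies wholly inside Lims2 on the opposite strand (chr18:31942997-31949636, GRCm38), and 318 of 319 genes that lie inside an opposite-strand gene, and 219 of 220 inside a same-strand gene, were likewise at 0 in both tables although they had at least 100 counts in the 1-month table. None of 6470 such genes without overlap was at 0. Of the span of Qdpr, 97.1% is overlapped by the antisense gene Gm42413, and of the span of Trf, 99.5% is overlapped by Gm20425, so their levels in these tables are uncertain. The spans of Cnp (53%), Bcas1 (32.2%), Enpp6 (28%) and Tspan2 (14.6%) are overlapped in part. Measured over exon bases alone, the overlap is 29.8% for Bcas1, 29.8% for Mobp, 24.8% for Ndrg1 and 20.6% for Ermn. It is 13.4% for Tspan2, 12.9% for Nkx6-2, 12.7% for Cnp, 7.93% for Pdgfra, 7.26% for Olig1 and 4.66% for Enpp6. The log2 fold changes of all members in all comparisons are given in the heat map.

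**Figure D1:**
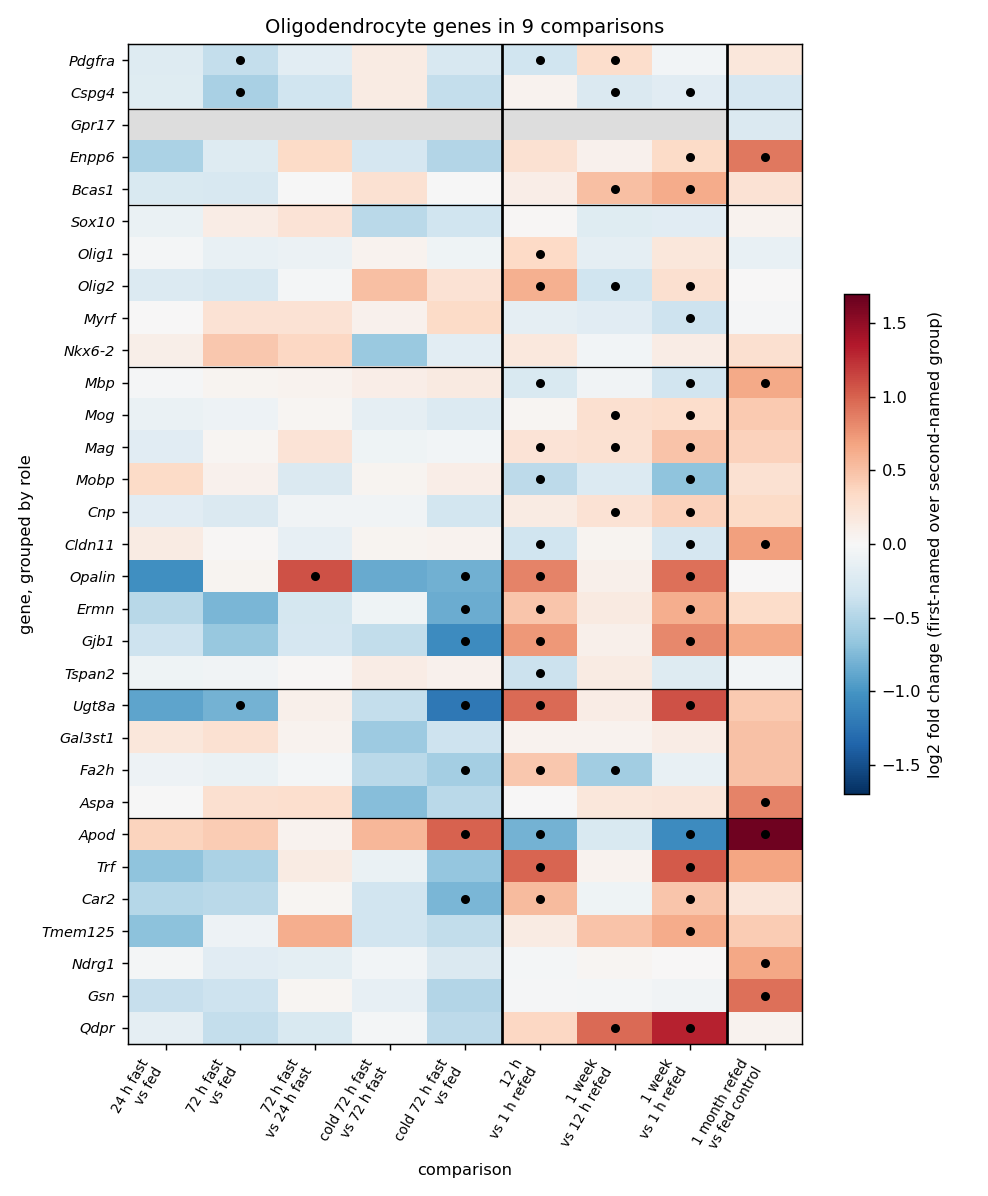
Log2 fold change of the 31 genes (rows, ordered by role) in 9 comparisons (columns, first-named over second-named group), with the fasting, refeeding and 1-month tables separated by thick lines. Black dots mark an adjusted p under 0.05 and grey cells were not tested. The cold fast column is mostly blue and the 12 h refeeding column is red for the same genes, with Apod the other way round.

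In mice fasted for 24 h, 0 of 30 members passed the test against fed mice (edgeR quasi-likelihood test, Benjamini-Hochberg adjusted over all genes), where 0.0245% of 20408 genes were called higher and 0.00980% lower. At an unadjusted p under 0.05 there were 7 of 30 members (10.4% of all genes), and DESeq2 called 2, Ugt8a and Opalin, both lower, against 0.617% of genes. Ugt8a, the galactosyltransferase that makes the major galactolipids of myelin, had 121, 95.0 and 97.3 CPM in fed libraries, 52.3, 63.2 and 53.0 CPM after 24 h of fasting and 53.5, 66.3 and 59.2 CPM after 72 h. Every fasted library was below every fed library. Its log2 difference from fed at 24 h was -0.90 ± 0.16 (SE, n = 3 each, adjusted p = 0.0742 by edgeR).

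Opalin, a transmembrane protein of the myelin paranode, had 29.6, 23.6 and 22.5 CPM in fed libraries, 12.6, 12.0 and 12.3 CPM at 24 h and 25.9, 22.7 and 29.5 CPM at 72 h of fasting. The 24 h libraries stood below both other groups, which overlapped. Its log2 difference from fed at 24 h was -1.04 ± 0.25 (adjusted p = 0.214), and its return at 72 h against 24 h passed the edgeR test at 1.08 ± 0.25 (adjusted p = 0.0478). Opalin was the 1 member called between 72 h and 24 h, where 0.568% of all genes were called higher and 1.06% lower, and the call was lost when any 1 of the 6 libraries was left out (largest adjusted p = 0.20). Between the same groups 7 of 10 striatal neuron markers were lower at 72 h and 0 higher (433 to 517 CPM at 72 h, 1080 to 1170 CPM at 24 h). Their part in the Opalin values was not tested.

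After 72 h of fasting 3 of 30 members were lower than in fed mice and 0 were higher, where 7.28% of all genes were called higher and 7.78% lower. They were both precursor genes and Ugt8a. Pdgfra had 57.6, 56.8 and 59.2 CPM after 72 h, against 85.9, 74.2 and 70.0 CPM in fed libraries, with no overlap, a log2 difference of -0.41 ± 0.09 (adjusted p = 0.0187 by edgeR). Cspg4 had 18.9, 17.6 and 25.2 CPM after 72 h, against 28.0, 30.5 and 31.8 CPM in fed libraries, also without overlap (-0.55 ± 0.15, adjusted p = 0.0303 by edgeR). Ugt8a fell to 59.7 ± 6.41 CPM after 72 h, against 104 ± 14.3 CPM in fed mice (SD, n = 3 each), a log2 difference of -0.81 ± 0.16 (adjusted p = 0.0112 by edgeR).

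Pdgfra and Cspg4 are also made by other cells, Cspg4 by pericytes and Pdgfra by fibroblasts. In the same libraries 5 of 12 pericyte and smooth muscle markers were lower at 72 h than in fed mice and 0 higher (summed 147 to 191 CPM at 72 h, 258 to 296 CPM in fed libraries), as were 3 of 8 meningeal fibroblast markers (28.5 to 98.1 CPM at 72 h, 91.1 to 146 CPM fed) and 8 of 12 endothelial markers (282 to 291 CPM at 72 h, 407 to 458 CPM fed). Striatal neuron markers were lower too, 6 of 10 (433 to 517 CPM at 72 h, 680 to 1160 CPM fed), as were 3 of 9 microglia markers (143 to 176 CPM at 72 h, 192 to 249 CPM fed) and 4 of 9 choroid plexus markers (56 to 64.7 CPM at 72 h, 65.7 to 268 CPM fed). So were 6 of 7 liver and skeletal muscle markers (18 to 24.7 CPM at 72 h, 15.1 to 2590 CPM fed). Of 6 blood markers, 5 were lower (1.18 to 2.65 CPM at 72 h, 8.09 to 18.2 CPM fed). The part of these in the precursor values was not tested. Of a further list of 15 precursor genes, 3 were lower and 1 was higher at 72 h. Rlbp1, a retinaldehyde-binding protein, was lower at 72 h (-1.41 ± 0.27, adjusted p = 0.0109 by edgeR), and Cdo1 and Vcan were lower as well, by 0.78 ± 0.19 and 0.43 ± 0.11 on the log2 scale. Lhfpl3 was higher (0.98 ± 0.28, adjusted p = 0.0398).

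The call on Ugt8a held in all 6 fits that left out 1 library. Those on Pdgfra and Cspg4 each held in 2 of 6, and the number of members called ranged from 1 (without fed library 1, fed library 2 or 72 h library 2) to 5 (without fed library 3). Over all genes, 5446 of 20895 were called without fed library 3, against 3072 of 20408 with every library. There were 830 without fed library 1, 456 without fed library 2 and 712 without 72 h library 2. With 1 surrogate variable in the fit, 0 members were called at 72 h, and 2 of 20408 genes.

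The other members did not pass the test at 72 h. Enpp6, a choline phosphodiesterase that marks newly forming oligodendrocytes, had 17.2, 14.5 and 12.1 CPM in fed libraries, 10.4, 8.90 and 10.8 CPM at 24 h and 12.9, 12.0 and 12.9 CPM at 72 h. Its 24 h libraries were below all fed libraries, with a difference of -0.54 ± 0.18 (adjusted p = 0.343 by edgeR). Bcas1, a gene of early myelinating cells, had 218, 183 and 134 CPM in fed libraries, 135, 173 and 138 CPM at 24 h and 144, 146 and 156 CPM at 72 h. These groups overlapped.

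Among the lineage transcription factors 0 of 5 were called in any of the 5 comparisons of the fasting table. Sox10, which specifies the lineage and drives myelin genes, had 52.4, 50.9 and 44.4 CPM in fed libraries, 40.8, 57.8 and 38.2 CPM at 24 h and 53.5, 59.0 and 48.1 CPM at 72 h. Olig2, the basic helix-loop-helix factor of the lineage, had 30.8, 29.2 and 20.4 CPM in fed libraries, 17.2, 29.5 and 21.4 CPM at 24 h and 19.7, 20.9 and 26.1 CPM at 72 h. Myrf, the factor that switches on the myelin programme, had 101, 90.6 and 75.2 CPM in fed libraries, 88.0, 85.9 and 93.6 CPM at 24 h and 98.5, 109 and 110 CPM at 72 h. For each of the 3 factors the fed libraries overlapped both fasted groups.

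The structural myelin genes Mbp, Mog and Mag overlapped between fed and fasted libraries. Mbp, which compacts the sheath, had 3016, 2483 and 1774 CPM in fed libraries, 2174, 2777 and 2231 CPM at 24 h and 2375, 2521 and 2583 CPM at 72 h. Mog, a protein of the outer sheath, had 64.9, 57.8 and 51.8 CPM in fed libraries, 53.0, 54.0 and 55.1 CPM at 24 h and 48.8, 54.6 and 61.7 CPM at 72 h. Mag, the adhesion protein of the inner sheath, had 138, 127 and 101 CPM in fed libraries, 98.5, 121 and 100 CPM at 24 h and 125, 133 and 117 CPM at 72 h. Gjb1, the gap junction protein connexin 32 of the sheath, had 17.4, 16.5 and 11.4 CPM in fed libraries, 9.14, 15.5 and 10.7 CPM at 24 h and 8.39, 10.48 and 9.91 CPM at 72 h. All its 72 h libraries were below all fed libraries, without passing the test (-0.65 ± 0.29, adjusted p = 0.136 by edgeR). Across the 10 myelin proteins the median log2 difference at 72 h was -0.02, against 0.01 over all genes tested, with Ermn lowest at -0.78 ± 0.27 (adjusted p = 0.0668 by edgeR).

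Trf, the iron carrier transferrin, which oligodendrocytes make in the brain, had 302, 304 and 206.5 CPM in fed libraries, 149, 195 and 162 CPM at 24 h and 188, 218 and 155 CPM at 72 h. Its 24 h libraries lay below all fed libraries (-0.68 ± 0.24, adjusted p = 0.364 by edgeR). Liver and skeletal muscle markers summed to 15.1 to 2590 CPM in fed libraries, 57.9 to 142 CPM at 24 h and 18 to 24.7 CPM at 72 h. The part of these tissues in the Trf values was not tested. Apod, a lipid-binding lipocalin of oligodendrocytes and of fibroblasts of the brain coverings, had 273, 202 and 171 CPM in fed libraries, 262, 323 and 257 CPM at 24 h and 340, 268 and 266 CPM at 72 h. Its groups overlapped, with a difference of 0.44 ± 0.17 at 72 h (adjusted p = 0.0962 by edgeR).

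Under cold together with the 72 h fast, 6 of 30 members were lower than in fed mice and 1 was higher, where 8.78% of all genes were called higher and 9.16% lower. The 6 that fell were Ugt8a, Gjb1, Ermn, Opalin, Car2 and Fa2h, and the 1 that rose was Apod. The median over the 30 members was -0.32, against -0.03 over all genes, and for the 10 myelin proteins it was -0.14. The 2 precursor genes and the 5 transcription factors were not among the calls, though both precursor genes lay below all fed libraries. Cspg4 had 20.26 to 26.69 CPM in the cold fast and 27.99 to 31.77 CPM in fed libraries, a log2 difference of -0.41. Pdgfra had 59.9, 67.5 and 63.5 CPM in the cold fast, against 85.9, 74.2 and 70.0 CPM in fed libraries, and although the groups did not overlap its difference of -0.27 ± 0.09 missed the threshold (adjusted p = 0.0584 by edgeR).

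Ugt8a had 34.1, 48.0 and 52.9 CPM in the cold fasted libraries, against 121, 95.0 and 97.3 CPM in fed libraries. The groups did not overlap, and the log2 difference was -1.21 ± 0.16 (adjusted p = 0.00189 by edgeR). Fa2h, the hydroxylase that supplies hydroxylated fatty acids for the same galactolipids, had 24.9, 32.0 and 44.9 CPM in the cold fast and 56.6, 49.4 and 46.0 CPM in fed libraries (-0.58 ± 0.18, adjusted p = 0.0435 by edgeR). Its cold library 3 lay just under the lowest fed library.

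Gjb1 had 4.03, 6.97 and 10.4 CPM in the cold fast, against 17.4, 16.5 and 11.4 CPM in fed libraries (-1.07 ± 0.30, adjusted p = 0.0302 by edgeR). Ermn, an actin-binding protein of late oligodendrocytes, had 41.8, 61.1 and 89.8 CPM in the cold fast, against 151, 106 and 90.9 CPM in fed libraries (-0.85 ± 0.27, adjusted p = 0.0474 by edgeR). Opalin had 10.2, 10.7 and 22.1 CPM in the cold fast, against 29.6, 23.6 and 22.5 CPM in fed libraries (-0.82 ± 0.24, adjusted p = 0.0381 by edgeR). In each of the 3 genes the groups did not overlap, and cold library 3 was close to the lowest fed library.

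Car2, a carbonic anhydrase of oligodendrocytes, had 61.6, 95.5 and 115 CPM in the cold fast and 188, 148 and 132 CPM in fed libraries (-0.78 ± 0.21, adjusted p = 0.029 by edgeR). Apod went the other way. It had 371, 421 and 500 CPM in the cold fast, against 273, 202 and 171 CPM in fed libraries, a log2 difference of 1.00 ± 0.18 (adjusted p = 0.00524 by edgeR). Every cold library was above every fed library. Meningeal fibroblast markers in those libraries summed to 28.8 to 50 CPM in the cold fast and 91.1 to 146 CPM in fed libraries, with 6 of 8 tested markers lower and 0 higher, and 2 further markers at 0. Their part in the Apod values was not tested.

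The calls on Ugt8a and Apod held in all 6 fits that left out a library. The other 5 each held in 2 of 6, without cold library 3 and without fed library 3. With 1 surrogate variable in the fit, 0 members and 12 of 20408 genes were called, against 3661 genes without that variable. Without cold library 3 there were 13 member calls, 12 lower and 1 higher, and 2437 of 20908 over all genes. Without fed library 3 there were 10, and 5507 of 20895 over all genes. There were 2 member calls without cold library 1, fed library 1 or fed library 2 (932, 1596 and 1132 over all genes). Without cold library 2 there were 3 (2036 over all genes). Pericyte and smooth muscle markers (6 of 12 lower, 0 higher; 130 to 161 CPM in the cold fast, 258 to 296 CPM fed), endothelial markers (9 of 12 lower) and choroid plexus markers (4 of 9 lower; 41.7 to 66.2 CPM in the cold fast, 65.7 to 268 CPM fed) moved with these genes. So did striatal neuron markers (6 of 10 lower, 0 higher; 491 to 763 CPM in the cold fast, 680 to 1160 CPM fed) and microglia markers (3 of 9 lower, 0 higher; 142 to 194 CPM in the cold fast, 192 to 249 CPM fed). Lower as well were 6 of 7 liver and skeletal muscle markers (23.3 to 26.1 CPM in the cold fast, 15.1 to 2590 CPM fed). Of 6 blood markers, 4 were lower (1.99 to 2.73 CPM in the cold fast, 8.09 to 18.2 CPM fed). Their part was not tested.

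Cold fasted mice set against mice fasted for 72 h without cold gave 0 called members, where edgeR called 0% of all genes in either direction. At an unadjusted p under 0.05 there were 9 of 30 members (6.35% of all genes), and DESeq2 called 0 members and 0.283% of genes. Gal3st1, the sulfotransferase that makes sulfatide, was at 10.2 ± 2.32 CPM with cold and 15.6 ± 0.304 CPM without (-0.61 ± 0.16, adjusted p = 0.505 by edgeR). Aspa, which releases acetate from N-acetylaspartate, was at 29.2 ± 12.3 CPM with cold and 48.4 ± 3.69 CPM without (-0.73 ± 0.22, adjusted p = 0.567 by edgeR). The log2 differences of the 4 genes of lipid and acetate metabolism were all negative, with a median of -0.54 against 0.00 over all genes. Without cold library 3 there were 2 member calls, both lower, among 5 genes called of 20908.

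Of 28 further mature oligodendrocyte genes tested from a list of 31, 7 were lower, 1 was higher and 20 did not pass the test in the cold fast against fed, beside the 9.16% and 8.78% of all genes called lower and higher, with a median of -0.34. Serpinb1a, a serine protease inhibitor, was at 5.14 ± 1.89 CPM in the cold fast and 14.3 ± 5.14 CPM in fed libraries (-1.47 ± 0.28, adjusted p = 0.00676 by edgeR), and Il33, a nuclear cytokine that oligodendrocytes also make, was at 42.8 ± 16.7 CPM in the cold fast and 94.3 ± 19.4 CPM in fed libraries (-1.14 ± 0.21, adjusted p = 0.00741). Of 16 further genes of myelin lipid synthesis 4 were lower and 0 higher, among them Fdft1, Sqle and Hmgcs1, enzymes of cholesterol synthesis, which other brain cells use as well.

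The promoters of 3 genes that were lower in the cold fast and higher at 12 h than at 1 h of refeeding, and of Apod, which did the reverse, are shown as examples of genes that moved together. Gjb1, Car2 and Fa2h were called in the same directions as the 3 genes and are not shown. Each line gives 300 bases from 250 before to 50 after the start site, 5′ to 3′ on the gene's strand (RefSeq, GRCm38.p6), with capitals marking matches to 4 motifs searched on both strands.
Ugt8a (chr3:125938603-125938902, minus strand): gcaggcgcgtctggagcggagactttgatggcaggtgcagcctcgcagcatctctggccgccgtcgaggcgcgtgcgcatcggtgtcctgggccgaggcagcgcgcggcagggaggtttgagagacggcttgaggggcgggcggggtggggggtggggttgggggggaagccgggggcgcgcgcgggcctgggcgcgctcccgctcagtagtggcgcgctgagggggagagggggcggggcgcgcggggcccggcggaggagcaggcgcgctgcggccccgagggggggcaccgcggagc
Opalin (chr19:41077064-41077363, minus strand): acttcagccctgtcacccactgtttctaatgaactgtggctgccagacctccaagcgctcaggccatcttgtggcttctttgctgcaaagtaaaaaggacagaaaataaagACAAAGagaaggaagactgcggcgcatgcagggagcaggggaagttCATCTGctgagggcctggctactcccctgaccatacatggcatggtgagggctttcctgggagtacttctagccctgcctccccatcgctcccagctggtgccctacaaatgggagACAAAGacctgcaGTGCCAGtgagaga
Ermn (chr2:58052815-58053114, minus strand): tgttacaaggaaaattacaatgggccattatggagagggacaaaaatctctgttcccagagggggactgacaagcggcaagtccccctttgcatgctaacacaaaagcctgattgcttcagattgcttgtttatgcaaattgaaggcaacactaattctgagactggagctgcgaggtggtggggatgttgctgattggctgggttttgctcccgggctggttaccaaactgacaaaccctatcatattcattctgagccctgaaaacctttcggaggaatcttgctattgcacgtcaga
Apod (chr16:31314759-31315058, minus strand): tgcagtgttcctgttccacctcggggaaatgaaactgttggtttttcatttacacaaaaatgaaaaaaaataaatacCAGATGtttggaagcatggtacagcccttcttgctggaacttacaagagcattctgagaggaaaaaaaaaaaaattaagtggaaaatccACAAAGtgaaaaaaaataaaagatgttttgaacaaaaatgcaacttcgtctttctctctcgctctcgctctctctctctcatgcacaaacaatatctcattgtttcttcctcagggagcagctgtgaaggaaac
The motifs were ACAAAG (a Sox core), CAGATG (an E-box), CTGGCAC (a Myrf motif) and a palindromic glucocorticoid response element. They occur in 18.7%, 17.2%, 5.01% and 0.475% of 32851 promoters of this length. Of the 21 members with a promoter entry, 7, 8, 4 and 0 hold them in at least 1 of their promoters, a count of genes that cannot be set against those shares of single promoters. The Opalin promoter holds 4 matches, the Apod promoter 2, and those of Ugt8a and Ermn 0. A match is a description of letters in this window and does not show binding.

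Refeeding was read from 1 h to 12 h and 1 week after the fast. At 12 h, 10 of 30 members were higher and 6 lower than at 1 h, where 7.08% of all genes were called higher and 7.14% lower. The members that rose were Trf, Ugt8a, Opalin, Gjb1, Olig2, Car2, Ermn, Fa2h, Olig1 and Mag. Those that fell were Apod, Mobp, Tspan2, Pdgfra, Cldn11 and Mbp, so the 10 myelin proteins were split, with 4 higher and 4 lower. The median over the members was 0.13 on the log2 scale, against 0.00 over all genes.

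Ugt8a had 33.3, 33.0 and 34.0 CPM at 1 h, 77.2, 61.8 and 57.4 CPM at 12 h and 67.7, 75.0, 72.8 and 69.1 CPM at 1 week. The 1 h libraries lay close together, and every later library was above them. The log2 difference at 12 h was 0.97 ± 0.09 (adjusted p = 3.23e-05 by edgeR) and at 1 week against 1 h it was 1.09 ± 0.09 (adjusted p = 2.34e-06).

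Trf had 107, 125 and 131 CPM at 1 h, 257, 239 and 221 CPM at 12 h and 262, 254, 244 and 240 CPM at 1 week. The 12 h libraries did not overlap the 1 h libraries (0.98 ± 0.08, adjusted p = 9.62e-06 by edgeR), within the limit on its counting given above. Gjb1 had 4.87, 5.16 and 6.16 CPM at 1 h, 9.22, 9.48 and 8.29 CPM at 12 h and 9.33, 9.06, 9.88 and 9.81 CPM at 1 week (0.73 ± 0.11 at 12 h, adjusted p = 0.00119 by edgeR). Opalin had 11.4, 11.2 and 9.72 CPM at 1 h, 20.5, 17.6 and 19.8 CPM at 12 h and 19.6, 18.6, 24.5 and 19.6 CPM at 1 week (0.84 ± 0.11 at 12 h, adjusted p = 0.000458 by edgeR). In these genes the difference was present by 12 h, and the 1-week libraries overlapped the 12 h libraries in Trf, Gjb1 and Opalin.

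Car2 had 65.7, 69.4 and 57.1 CPM at 1 h, 107, 93.0 and 79.8 CPM at 12 h and 84.9, 89.3, 93.6 and 86.2 CPM at 1 week (0.54 ± 0.10 at 12 h, adjusted p = 0.00273 by edgeR). Ermn had 23.0, 29.4 and 30.98 CPM at 1 h, 46.8, 34.6 and 34.2 CPM at 12 h and 39.6, 45.8, 42.4 and 42.8 CPM at 1 week (0.47 ± 0.13 at 12 h, adjusted p = 0.029 by edgeR). Fa2h had 34.0, 36.4 and 43.8 CPM at 1 h, 51.4, 53.9 and 51.7 CPM at 12 h and 32.0, 34.2, 35.4 and 38.0 CPM at 1 week. Unlike Car2 and Ermn, Fa2h was high at 12 h alone, 0.46 ± 0.09 above 1 h (adjusted p = 0.00397 by edgeR), and fell again at 1 week against 12 h (-0.58 ± 0.08, adjusted p = 0.000824).

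Olig2 also peaked at 12 h. It had 17.8, 22.1 and 22.5 CPM at 1 h, 32.5, 33.3 and 29.0 CPM at 12 h and 24.0, 25.8, 24.9 and 25.4 CPM at 1 week. The 12 h libraries were above all others, by 0.60 ± 0.09 over 1 h (adjusted p = 0.00103 by edgeR), and 1 week was 0.34 ± 0.08 lower than 12 h on the log2 scale (adjusted p = 0.02). Olig1, its neighbour on the chromosome, was at 108 ± 12 CPM at 12 h and 85.1 ± 8.4 CPM at 1 h (0.34 ± 0.09, adjusted p = 0.0166 by edgeR). Sox10 had 47.6, 52.4 and 42.7 CPM at 1 h, 50.2, 48.4 and 45.8 CPM at 12 h and 42.3, 39.9, 44.2 and 40.6 CPM at 1 week and was called in none of the comparisons. Myrf had 77.1, 87.7 and 86.8 CPM at 1 h, 77.0, 75.8 and 72.6 CPM at 12 h and 64.2, 60.7, 69.4 and 67.7 CPM at 1 week, and it was lower at 1 week than at 1 h (-0.36 ± 0.06, adjusted p = 0.00112 by edgeR).

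Several structural myelin genes went down over the same hours. Mbp had 1823, 1906 and 1900 CPM at 1 h, 1719, 1539 and 1441 CPM at 12 h and 1462, 1490, 1571 and 1487 CPM at 1 week, and the 12 h libraries were below all 1 h libraries (-0.26 ± 0.07, adjusted p = 0.0304 by edgeR). Mobp, a basic protein of the compact sheath, had 270, 280 and 378 CPM at 1 h, 222, 220 and 240 CPM at 12 h and 175, 190, 208 and 200 CPM at 1 week (-0.45 ± 0.11 at 12 h, adjusted p = 0.0167 by edgeR). Tspan2, a tetraspanin, and Cldn11, the tight junction protein of myelin, were lower at 12 h than at 1 h by 0.36 ± 0.09 and 0.33 ± 0.10 on the log2 scale. Mag rose instead, with 93.6, 96.5 and 101 CPM at 1 h, 117, 117 and 107 CPM at 12 h and 134, 127, 149 and 131 CPM at 1 week (0.23 ± 0.07 at 12 h, adjusted p = 0.0414 by edgeR).

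Apod had 180, 154 and 244 CPM at 1 h, 130, 102 and 99.1 CPM at 12 h and 97.3, 94.4, 90.1 and 86.4 CPM at 1 week. Each 12 h library was below each 1 h library (-0.80 ± 0.16, adjusted p = 0.00905 by edgeR), and the 1-week libraries were below all 12 h libraries. Over the same 3 times meningeal fibroblast markers summed to 36.7 to 82.7 CPM at 1 h, 74.4 to 88.6 CPM at 12 h and 112 to 155 CPM at 1 week. The 1 h and 12 h sums overlapped, and 1 of 8 markers was higher and 0 lower at 12 h than at 1 h. The part of these cells in the Apod values was not tested.

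Among the precursor genes, Pdgfra had 73.5, 74.6 and 70.4 CPM at 1 h, 58.0, 55.4 and 58.6 CPM at 12 h and 66.5, 77.1, 69.5 and 68.3 CPM at 1 week. The 12 h libraries lay below all others, by 0.34 ± 0.07 under 1 h (adjusted p = 0.00373 by edgeR), and 1 week was 0.29 ± 0.06 above 12 h (adjusted p = 0.00845). Cspg4 had 36.4, 35.9 and 37.8 CPM at 1 h, 34.6, 39.5 and 40.4 CPM at 12 h and 33.3, 31.3, 33.5 and 30.7 CPM at 1 week, lower at 1 week than at 12 h (-0.25 ± 0.07, adjusted p = 0.0291 by edgeR). The precursor genes thus did not share a direction. Of 15 further precursor genes, 4 were higher and 1 lower at 12 h than at 1 h. Pcdh15, a protocadherin, was at 479 ± 49.7 CPM at 12 h and 324 ± 9.22 CPM at 1 h (0.56 ± 0.09, adjusted p = 0.00173 by edgeR), and Sox6, a factor that holds precursors immature, was 0.41 ± 0.08 higher (adjusted p = 0.00518).

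Markers of other cells moved over these hours as well. At 12 h, 5 of 11 astrocyte markers were lower than at 1 h and 0 higher (summed 3540 to 4180 CPM at 12 h, 4360 to 4420 CPM at 1 h), and 3 of 9 microglia markers were higher and 0 lower (180 to 213 CPM at 12 h, 148 to 156 CPM at 1 h). Their part in the member values was not tested.

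At 12 h against 1 h, 9 of the 16 calls held in every fit that left out 1 of 6 libraries, namely those on Trf, Ugt8a, Opalin, Gjb1, Olig2, Car2, Fa2h, Apod and Pdgfra. The call on Mag and that on Mbp each held in 1 of 6 such fits, and those on Tspan2 and Cldn11 in 2 of 6.

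At 1 week, 6 of 30 members were higher and 3 lower than at 12 h, where 6.56% of all genes were called higher and 5.00% lower. Bcas1 had 62.5, 72.4 and 70.9 CPM at 1 h, 77.4, 76.3 and 69.3 CPM at 12 h and 106, 108, 103 and 106 CPM at 1 week. Its rise came between 12 h and 1 week (0.51 ± 0.06, adjusted p = 0.000473 by edgeR), with no overlap. Enpp6 had 8.12, 8.08 and 9.69 CPM at 1 h, 11.4, 10.49 and 9.12 CPM at 12 h and 10.8, 11.4, 10.54 and 10.8 CPM at 1 week, and was higher at 1 week than at 1 h (0.33 ± 0.10, adjusted p = 0.0243 by edgeR).

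Mog had 36.0, 41.7 and 41.7 CPM at 1 h, 44.1, 38.6 and 39.1 CPM at 12 h and 47.9, 49.4, 50.6 and 48.0 CPM at 1 week (0.27 ± 0.07 at 1 week over 12 h, adjusted p = 0.021 by edgeR). Cnp, the cyclic nucleotide phosphodiesterase of the sheath's cytoplasmic channels, had 199, 213 and 206 CPM at 1 h, 259, 216 and 210 CPM at 12 h and 269, 284, 275 and 258 CPM at 1 week (0.25 ± 0.07 at 1 week over 12 h, adjusted p = 0.0387 by edgeR). Only its 12 h library 1 reached the 1-week range. Mag rose further in the same interval (0.25 ± 0.07, adjusted p = 0.0227). Qdpr, which recycles the cofactor tetrahydrobiopterin, had 9.46, 11.8 and 11.4 CPM at 1 h, 16.6, 13.2 and 11.9 CPM at 12 h and 26.3, 33.5, 26.0 and 22.3 CPM at 1 week (0.96 ± 0.14 at 1 week over 12 h, adjusted p = 0.00182 by edgeR), read with the overlap given above.

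At 1 week against 1 h, 14 members were higher and 6 lower, where 13.5% of all genes were called in each direction. Of 28 further mature oligodendrocyte genes, 16 were higher and 0 lower, with a median of 0.36. Il33 was at 47.6 ± 2.66 CPM at 1 week and 20.1 ± 1.7 CPM at 1 h (1.25 ± 0.08, adjusted p = 4.61e-07 by edgeR). Of 16 further lipid synthesis genes, 5 were higher and 0 lower at 1 week than at 12 h, Hmgcs1 by 0.64 ± 0.09.

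Markers of other cells moved over the week too. At 1 week against 1 h, 7 of 9 microglia markers were higher and 0 lower (summed 181 to 213 CPM at 1 week, 148 to 156 CPM at 1 h), as were 5 of 8 meningeal fibroblast markers and 5 of 6 blood cell markers (402 to 1260 CPM at 1 week, 68.6 to 124 CPM at 1 h). Of 11 astrocyte markers, 4 were higher and 2 lower at 1 week than at 1 h, and 6 were higher and 0 lower at 1 week than at 12 h (summed 3900 to 4320 CPM at 1 week, 3540 to 4180 CPM at 12 h). The 1-week libraries were also deeper. The part of these in the member values was not tested. Of the 20 calls at 1 week against 1 h, 16 held in every fit that left out a library, and of the 9 at 1 week against 12 h, 4 did, those on Bcas1, Pdgfra, Qdpr and Fa2h.

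**Figure D2:**
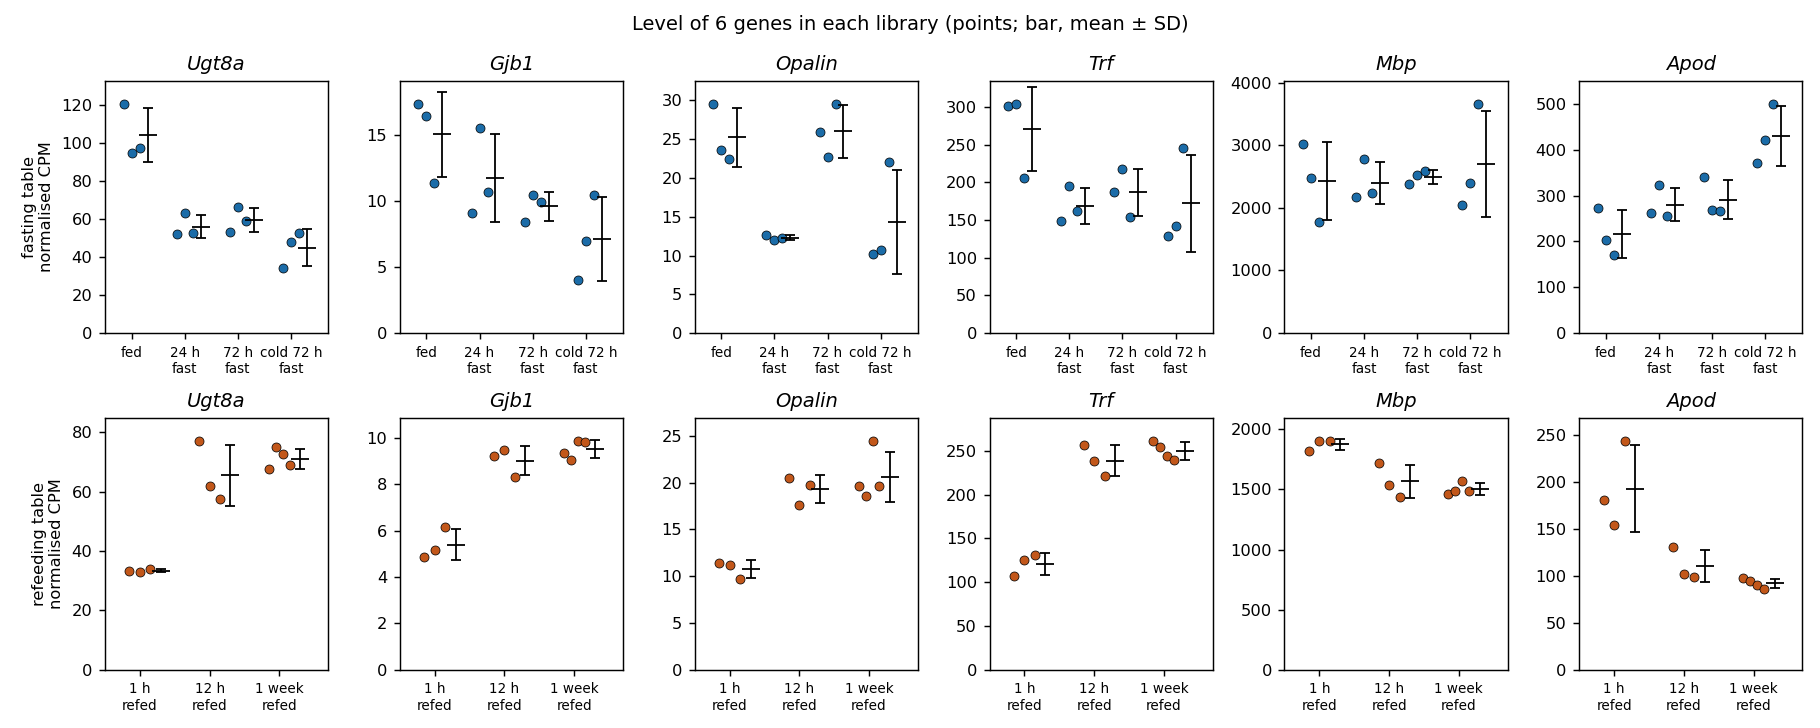
Normalised CPM of 6 genes in each library of the fasting table (upper row) and the refeeding table (lower row), with the mean ± SD at the right of each group; axes start at 0 and differ between panels. Ugt8a is at 33.0 to 34.0 CPM in the 1 h refed libraries and at 57.4 CPM or above in all later ones, while Mbp and Apod are lower at 12 h than at 1 h.

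The cold fast against fed and 12 h against 1 h of refeeding share no library. There were 7 members called in both, Ugt8a, Gjb1, Opalin, Ermn, Car2, Fa2h and Apod, and all 7 had opposite directions. Over all genes 676 were called in both and 469 of them (69.4%) were opposite. In sign alone 26 of 30 members (86.7%) were opposite, against 48.4% of the 19516 genes tested in both tables. Members moved together between libraries of some groups, so these signs are not independent of each other. The labels of the refed groups name no cold, so the 72 h fast without cold is the nearer contrast. There 3 members were called, all lower than in fed mice. In sign, 19 of 30 members were lower and 11 higher in that contrast, against 23 and 7 in the cold fast. Of these, at 12 h against 1 h of refeeding, Ugt8a was higher, Pdgfra was lower again and Cspg4 was not called.

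**Figure D3:**
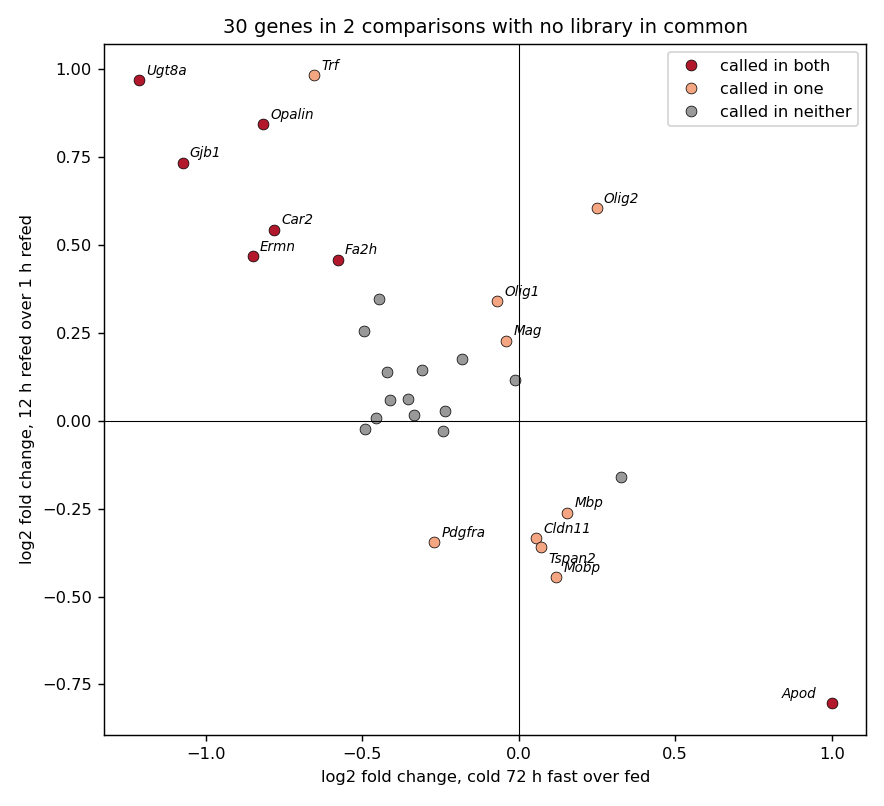
Log2 fold change of 30 genes in the cold 72 h fast over fed (x axis) against that at 12 h over 1 h of refeeding (y axis), coloured by whether each was called (adjusted p under 0.05) in both, one or neither comparison. The 7 genes called in both lie in the upper left quadrant, apart from Apod in the lower right.

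Since members rose and fell together between libraries of some groups, levels were also expressed per 100 CPM of Mbp in the same library. This ratio was chosen after the values were seen and is given as a description, without a test. Mbp was itself called lower at 12 h than at 1 h of refeeding and higher at 1 month than in controls, and the ratio carries those changes. Ugt8a per 100 CPM of Mbp was 3.83 to 5.49 in fed libraries, 2.28 to 2.40 at 24 h and 2.25 to 2.63 at 72 h of fasting, and 1.45 to 2.01 in the cold fast. In the refeeding table it was 1.73 to 1.83 at 1 h, 3.98 to 4.49 at 12 h and 4.63 to 5.03 at 1 week. The ratio did not overlap between fed and any fasted group, nor between 1 h and any later time, and its range within the 24 h and 72 h fasts was narrow.

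The ratio was also taken against another sheath gene. Per 100 CPM of Mag, Ugt8a was at 87.9, 74.6 and 96.6 in fed libraries, 53.1, 52.1 and 53.0 at 24 h, 42.9, 49.8 and 50.5 at 72 h, and 39.3, 46.5 and 31.9 in the cold fast. In the refeeding table it was at 35.6, 34.1 and 33.8 at 1 h, 66.0, 53.1 and 53.6 at 12 h and 50.4, 58.9, 48.9 and 52.7 at 1 week. Fed libraries were again above all fasted ones and 1 h libraries below all later ones. Other parts of the order differed: per 100 CPM of Mag the cold and 72 h fasted libraries overlapped, as did the 12 h and 1-week libraries, while neither pair overlapped per 100 CPM of Mbp.

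Gjb1 per 100 CPM of Mbp was 0.576 to 0.663 in fed libraries, 0.420 to 0.559 at 24 h, 0.353 to 0.416 at 72 h and 0.197 to 0.292 in the cold fast. In the refeeding table it was 0.267 to 0.324 at 1 h, 0.536 to 0.616 at 12 h and 0.608 to 0.660 at 1 week. The 4 groups of the fasting table did not overlap on this scale. Mag per 100 CPM of Mbp was 4.56 to 5.68 in fed libraries, 4.37 to 4.53 at 24 h, 4.55 to 5.28 at 72 h and 4.24 to 4.53 in the cold fast, so the 24 h and cold libraries lay below all fed libraries and the 72 h libraries overlapped them. In the refeeding table it was 5.06 to 5.30 at 1 h, 6.81 to 7.57 at 12 h and 8.54 to 9.48 at 1 week, with no overlap. Apod was at 8.14 to 9.64 in fed libraries, 11.5 to 12.1 at 24 h, 10.3 to 14.3 at 72 h and 13.7 to 18.1 in the cold fast, above the fed range in every fasted library. Ermn, Trf and Car2 were below the fed range in every fasted library. Fa2h was at 1.88 to 2.59 in fed libraries and overlapped them at 24 h (1.63 to 2.23) and 72 h (1.62 to 2.07). Mog, at 2.15 to 2.92 in fed libraries, also overlapped them at 24 h and 72 h (1.94 to 2.47 and 2.05 to 2.39). Opalin overlapped fed at 72 h (0.899 to 1.14, against 0.952 to 1.27).

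**Figure D4:**
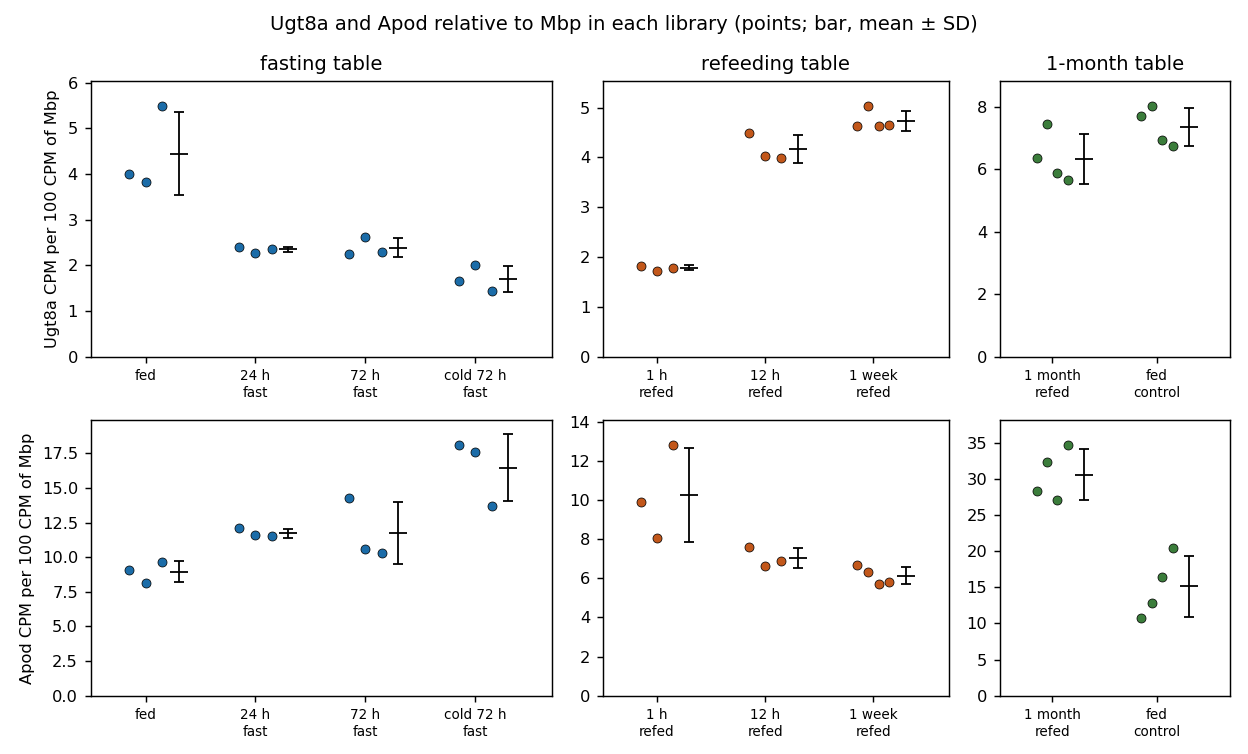
Ugt8a (upper row) and Apod (lower row) per 100 CPM of Mbp in each library of the 3 tables, with the mean ± SD at the right of each group; all axes start at 0 and levels are not comparable between tables. Ugt8a lies at 3.83 or above in fed libraries and at 2.63 or below in all fasted libraries, and at 1.83 or below at 1 h of refeeding.

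A month after the fast, 7 of 31 members were higher in refed mice than in fed controls and 0 were lower, where 6.37% of all genes were called higher and 3.76% lower. They were Apod, Gsn, Enpp6, Aspa, Cldn11, Mbp and Ndrg1. In sign, 26 of 31 members were higher, with a median of 0.33 on the log2 scale against 0.00 over all genes. The transcription factors had a median of 0.00 and none was called.

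Apod had 326, 413, 360 and 317 CPM in refed libraries, against 82.6, 108, 93.2 and 164 CPM in controls. The groups did not overlap, and the log2 difference was 1.66 ± 0.22 (n = 4 each, adjusted p = 0.00419 by edgeR). Gsn, the actin-severing protein gelsolin, had 136, 181, 135 and 103 CPM in refed libraries, against 76.1, 68.5, 67.2 and 78.1 CPM in controls (0.94 ± 0.14, adjusted p = 0.00161 by edgeR). Ndrg1, a cytoplasmic protein needed for peripheral myelin, had 168, 200.2, 179 and 129 CPM in refed libraries, against 109, 110, 103 and 110 CPM in controls (0.65 ± 0.10, adjusted p = 0.001 by edgeR). In each of the 3 genes every refed library was above every control library.

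Mbp had 1149, 1281, 1328 and 912 CPM in refed libraries, against 775, 839, 568.5 and 801 CPM in controls (0.65 ± 0.13, adjusted p = 0.0107 by edgeR). Enpp6 had 8.998, 11.5, 9.22 and 5.70 CPM in refed libraries, against 5.28, 4.57, 3.64 and 5.68 CPM in controls (0.90 ± 0.20, adjusted p = 0.0105 by edgeR). Aspa was at 26.4 ± 3.45 CPM in refed mice and 14.7 ± 4.23 CPM in controls, and Cldn11 was at 132 ± 25.6 CPM in refed mice and 81.8 ± 12 CPM in controls. Refed library 5 was the lowest of its group for each of Mbp, Enpp6, Aspa and Cldn11 and came close to the highest control library.

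Gpr17, measurable in this table, had 34.3, 38.6, 38.1 and 34.2 CPM in refed libraries, against 42.5, 46.5, 40.8 and 42.9 CPM in controls. All refed libraries were below all controls, with a difference of -0.25 ± 0.08 that did not pass the test (adjusted p = 0.0662 by edgeR). Pdgfra had 97.1, 110.0, 106 and 102 CPM in refed libraries, against 91.3, 94.0, 92.7 and 86.3 CPM in controls (0.19 ± 0.07, adjusted p = 0.0868 by edgeR). Cspg4 had 60.8, 61.6, 62.1 and 56.1 CPM in refed libraries, against 86.7, 79.2, 64.2 and 64.0 CPM in controls (-0.29 ± 0.10, adjusted p = 0.0627 by edgeR). Of 15 further precursor genes 0 were higher and 3 lower, namely Sema5a, Xylt1 and Cacng4, each by less than 0.4 on the log2 scale.

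Ugt8a had 73.0, 95.5, 78.2 and 51.6 CPM in refed libraries and 59.7, 67.2, 39.4 and 54.0 CPM in controls, and the groups overlapped. Per 100 CPM of Mbp it was at 5.66 to 7.45 in refed libraries and 6.74 to 8.02 in controls, also overlapping. Car2 per 100 CPM of Mbp was at 10.4 to 11.2 in refed libraries and 13.6 to 16.8 in controls, and Opalin at 0.978 to 1.38 in refed libraries and 1.66 to 2.19 in controls, neither with overlap. Mbp itself was higher in refed mice, so these ratios do not show a fall of Car2 or Opalin. Car2 was at 125 ± 17.8 CPM in refed libraries and 109 ± 11 CPM in controls. Opalin had 15.8, 17.3, 13.0 and 11.7 CPM in refed libraries and 14.9, 17.0, 12.5 and 13.3 CPM in controls. Trf had 591, 755, 601 and 371 CPM in refed libraries, against 384, 386, 266 and 417 CPM in controls (0.67 ± 0.24, adjusted p = 0.119 by edgeR). Refed library 5 was below 3 of the 4 controls for Trf and the other 3 refed libraries were above all of them.

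Gjb1 had 20.9, 19.9, 20.9 and 11.2 CPM in refed libraries, against 11.5, 12.5, 7.58 and 14.8 CPM in controls, so that 3 of 4 refed libraries were above all controls (0.65 ± 0.21, adjusted p = 0.0716 by edgeR). Mog had 49.5, 60.9, 48.0 and 36.8 CPM in refed libraries, against 38.5, 35.4, 29.4 and 40.9 CPM in controls (0.44 ± 0.14, adjusted p = 0.0519 by edgeR). Bcas1 had 141, 161, 159 and 131 CPM in refed libraries, against 125, 146, 103 and 126 CPM in controls, with overlap. Sox10 ranged from 29.14 to 40.63 CPM in refed libraries and from 27.71 to 39.55 CPM in controls, Olig2 from 17.95 to 22.65 CPM in refed libraries and from 17.7 to 24.39 CPM in controls, and Myrf from 75.82 to 120.3 CPM in refed libraries and from 77.47 to 128.2 CPM in controls. The groups of these 3 factors covered nearly the same range.

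Of 12 further committed-stage genes 1 was higher and 2 were lower in refed mice. Bmp4, a ligand made by committed oligodendrocyte precursors and by fibroblasts, was at 13.0 ± 4.18 CPM in refed mice and 3.87 ± 0.678 CPM in controls (1.75 ± 0.21, adjusted p = 8.81e-05 by edgeR). Tnr, the matrix protein tenascin-R, was at 178 ± 6.38 CPM in refed mice and 230 ± 26.4 CPM in controls (-0.37 ± 0.08, adjusted p = 0.00653 by edgeR), and Tmem163 was at 24.3 ± 2.91 CPM in refed mice and 31.6 ± 3.62 CPM in controls (-0.38 ± 0.11, adjusted p = 0.0365). Of 29 further mature genes 7 were higher and 0 lower, among them Lpar1, a lysophosphatidic acid receptor, at 42.0 ± 6.47 CPM in refed mice and 22.8 ± 3.77 CPM in controls (0.88 ± 0.13, adjusted p = 0.000368 by edgeR). Of 16 further lipid synthesis genes 3 were higher and 0 lower, Cers2, Degs1 and Elovl1, which act in ceramide and long-chain fatty acid synthesis.

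Markers of the brain coverings and vessels differed between the same libraries. Of 10 meningeal fibroblast markers 9 were higher in refed mice and 0 lower, with a median of 2.84 on the log2 scale and a summed level of 601 to 1000 CPM in refed libraries, against 87.8 to 228 CPM in controls. None of the 10 was at 0 in any library. Control library 5 had the highest meningeal sum of its group, 228 CPM, and also the highest Apod, at 164 CPM. Higher in refed mice were also 7 of 12 endothelial markers (502 to 661 CPM refed, 391 to 459 CPM controls), 5 of 11 pericyte and smooth muscle markers, with 1 lower (437 to 648 CPM refed, 290 to 347 CPM controls), and 3 of 10 microglia markers (373 to 404 CPM refed, 280 to 348 CPM controls). Of 12 neuron markers 0 were higher and 2 lower, and all 12 differences were negative, with a median of -0.22 (4950 to 5410 CPM refed, 5430 to 6390 CPM controls). Their part in the member values was not tested.

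The calls on Apod, Aspa, Gsn and Ndrg1 held in all 8 fits that left out a library, and those on Mbp, Enpp6 and Cldn11 in 7 of 8. Without refed library 5 there were 16 calls, all higher, where 1082 of 15070 genes were called. Without control library 5 there were 11, where 2856 of 14971 genes were called, against 1506 of 14867 with every library. With 1 surrogate variable only Apod was called of the members, among 130 genes. DESeq2 called 13 members, 11 higher and 2 lower (Gpr17 and Cspg4), against 6.67% of all genes higher and 5.67% lower.

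**Figure D5:**
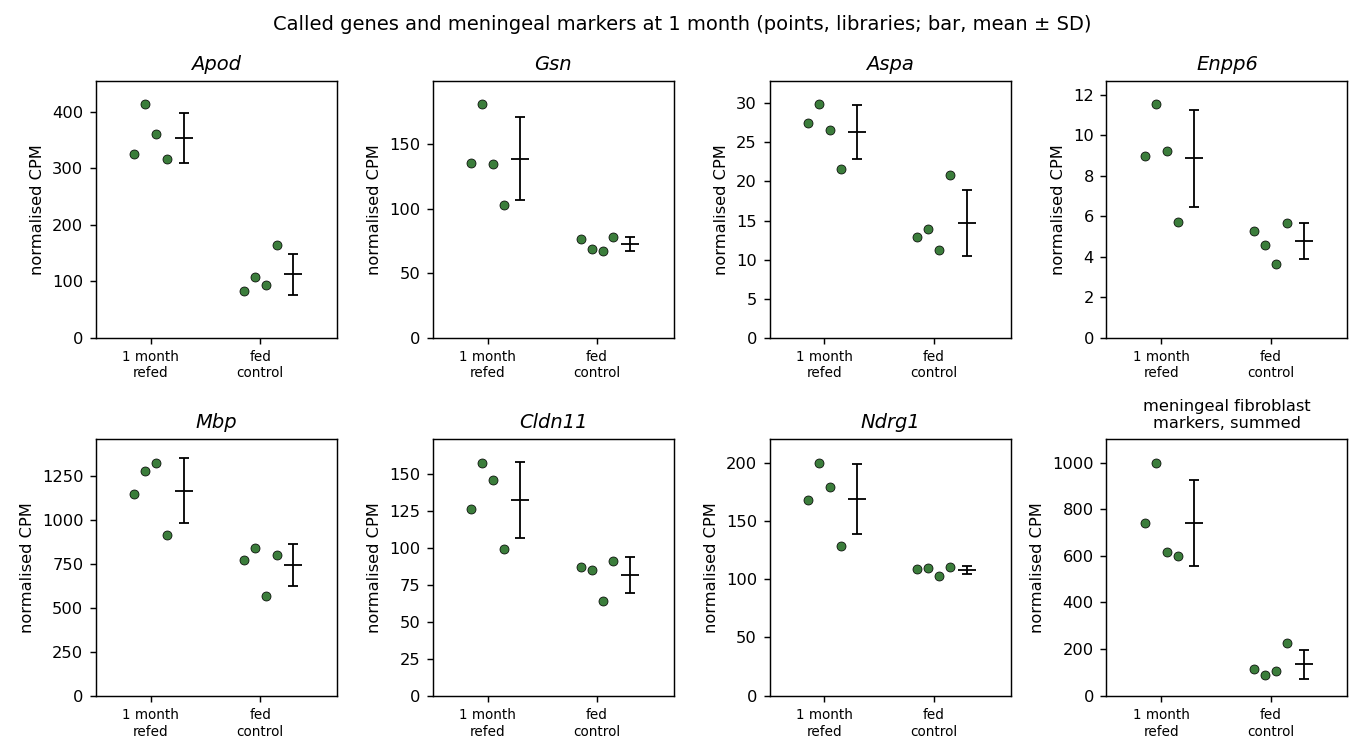
Normalised CPM of the 7 genes called at 1 month and the summed CPM of 10 meningeal fibroblast markers in each library, refed left of fed control, with the mean ± SD at the right of each group and axes from 0. Every called gene is higher in all refed libraries than in all controls, and the meningeal sum is 601 to 1000 CPM in refed libraries and 87.8 to 228 CPM in controls.

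Over the 9 comparisons 27 of the 31 members were called at least once. The 4 that were not were Gpr17, tested in the 1-month table alone, Sox10, Nkx6-2 and Gal3st1.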

How the data were processed

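Per the labels' protocols, total RNA from mouse hypothalamus (Qiagen RNeasy) was depleted of ribosomal RNA before stranded library preparation (NEBNext Ultra II Directional). The authors deposited 3 tables of raw read counts per Ensembl gene, and HISAT2, featureCounts, edgeR and the mm10 build are named in the submitters' processing notes without versions. No source used here states whether counting used strand. Of the columns, 2 matched no sample and were not used, and the authors' own comparison tables were not used.

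Low counts were removed with edgeR's filterByExpr, libraries were scaled by TMM, and each comparison was tested with edgeR 4.0.16 in R 4.3.3 (robust quasi-likelihood fit of all groups of a table), with Benjamini-Hochberg adjustment over all genes and a threshold of 0.05. Log2 differences are the first-named group over the second with standard errors. Annotation was GENCODE M21 (GRCm38). DESeq2 1.42.0, 1 surrogate variable (sva 3.50.0), library totals, RLE scaling, no filter, the compared groups alone, the replicate number as a block and leaving out each library were tried as alternatives. The scripts were tested on simulated data. Replicates were compared over 36 pairs, of which 0 were identical. Their chi-square per degree of freedom ran from 3.19 to 106. Within the 24 h fast it was 3.51 between libraries 1 and 3, against 95.9 and 79.1 between those libraries and library 2. Leaving out that library 2 gave 56 calls over all genes at 24 h against fed, against 7 with it. The members and all gene lists were chosen with earlier results of these data known. Genes named with full values are 12 fixed members of the lineage plus the 12 other called members whose adjusted p-values were lowest, and up to 4 called genes of each further list are named. Libraries held 9.35 M to 64.3 M counts (M, mega), and the standard errors cover both counting error and the spread between libraries.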

Additional observations from a re-analysis of the deposited data

Results flagged for a closer look

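Within groups of 4 libraries, 71 sets of member values were examined for a library far from the others, and chance would single out about 1 in 20. Opalin at 1 week of refeeding had 24.49 CPM in library 3, against 18.62 to 19.62 CPM in the other 3 libraries, a gap of 0.83 of the range. Gjb1 at 1 month of refeeding had 11.19 CPM in library 5, against 19.85 to 20.89 CPM in the other 3 libraries, a gap of 0.893 of the range. Library 5 was also the lowest of the refed group for 29 of 31 members.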

How the results depend on the processing

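None of the members' called differences changed direction under the alternatives run. Without a filter, the number of members called was 1 at 24 h of fasting against fed (Ugt8a), 0 at 72 h against 24 h and 4 in the cold fast against fed. Over all genes this gave 13, 419 and 2804 calls, against 7, 333 and 3661 with the filter. With 1 surrogate variable the number of members called was 0 at 72 h against fed, 0 at 72 h against 24 h, 0 in the cold fast against fed, 5 at 1 week against 12 h and 1 at 1 month (Apod). Over all genes it was 2, 0, 12, 727 and 130, in that order, against 3072, 333, 3661, 2304 and 1506 without the variable. With the compared groups alone the number of members called was 6 at 72 h against fed and 2 in the cold fast against fed (3909 and 2612 over all genes). DESeq2 called 2 members at 24 h against fed and 13 at 1 month (206 and 1966 over all genes). With the replicate block it was 2 at 1 month (Ndrg1 and Gsn), where the count over all genes was 408 against 1506 without it; in the other comparisons the block moved the members' count by less than 1.5 times. The labels do not say that replicate numbers pair the libraries. Deviations of same-numbered libraries correlated at -0.234 to 0.333 in the fasting table, -0.057 to 0.258 in the refeeding table and -0.062 to -0.017 in the 1-month table. Their medians were 0.016, 0.039 and -0.042, against -0.0115, -0.02 and 0.047 for libraries of different numbers. With 18, 9 and 3 same-numbered pairs from small groups, these values cannot exclude pairing. Leaving out 1 library gave 0 to 1 calls at 24 h against fed, 1 to 5 at 72 h against fed, 0 at 72 h against 24 h, 0 to 2 with cold against without, 2 to 13 in the cold fast against fed, 11 to 14 at 12 h against 1 h, 5 to 12 at 1 week against 12 h (5 without 12 h library 2, 12 h library 3 or 1-week library 1), 17 to 19 at 1 week against 1 h and 5 to 16 at 1 month. Over all genes, calls ranged from 3 to 56, 434 to 5446, 0 to 328, 0 to 5 and 932 to 5507 in the fasting comparisons. In the same order, the others ranged from 1314 to 3537, 589 to 3050, 3606 to 4979 and 775 to 2856. The cause of these moves was not tested. Scaling by library totals shifted the median of all genes by -0.10 on the log2 scale with cold against without, and turned the split of all genes called to 1912 higher and 1122 lower at 72 h against fed (1485 and 1587 by TMM), 1538 and 2434 in the cold fast against fed (1791 and 1870), and 1076 and 395 at 1 month (947 and 559). Depth limits low genes such as Tmem125, which in the 1-month table had 3.26 to 6.119 CPM at 9.35 M to 13.8 M counts a library.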
